A study of Homo sapiens with 2 samples.

Results

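The type I interferon response genes described here are interferon-stimulated genes and their regulators, taken from a named set of 41 genes by symbol, current or older. No measured value served as a rule, but the set was chosen with earlier results of these data known. The table of 19362 genes held 40 of them, with RIGI found under its identifier ENSG00000107201, and CMPK2 was not analysed here. Values are in CPM, reads scaled to a common library total, and 38 members averaged 1 CPM or more across the libraries. RSAD2 and DDX60 were below that. The study set FTC-133 cells, an established line from a human follicular thyroid carcinoma, transfected with a control siRNA (1 library) against the same line transfected with siRNA against CHI3L1 (1 library). Both groups therefore received siRNA, and cells without siRNA were not analysed here, so the levels below have no untransfected baseline. The labels state neither the time after transfection nor the siRNA sequences nor how many cultures went into each library.

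Type I interferons are secreted when a cell senses foreign nucleic acid. In the cytosol, double-stranded RNA is bound by the helicases RIG-I (gene RIGI) and MDA5 (gene IFIH1), which signal through MAVS and the kinase TBK1 to IRF3 and IRF7, the factors that switch on interferon genes. Secreted interferon binds the receptor chains IFNAR1 and IFNAR2, whose kinases JAK1 and TYK2 phosphorylate STAT proteins. STAT2 and IRF9 are parts of the complex that then binds the interferon-stimulated response element in the promoters of antiviral genes. Small double-stranded RNAs, siRNA among them, can be bound by RIG-I, while MDA5 binds longer double-stranded RNA.

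The response element has the core GAAANNGAAA, which 22 of the 32 members with a promoter to search held. Promoter stretches that hold it are shown for 9 members. The first 5 are the members at least 1.5-fold lower with CHI3L1 siRNA that have a match. The last 4 (OAS3, PARP9, PARP14 and EIF2AK2) had a ratio between the libraries above 1 beyond counting error. In each of them a match was placed before or across the start. MX1 also had such a ratio and a match in 2 of its promoters. The match in 1 of them lies after the start, the other was not placed, and neither is shown. Each is read 5′ to 3′ on the gene's strand from RefSeq promoters on GRCh38.p14 and ends at the annotated start or at the end of the match. Capitals mark every match to the core or to its reverse complement in the stretch, and overlapping matches run together.
IFI44, chr1:78649746-78649788, plus strand: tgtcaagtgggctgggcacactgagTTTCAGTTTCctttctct
IFI27, chr14:94110603-94110675, plus strand: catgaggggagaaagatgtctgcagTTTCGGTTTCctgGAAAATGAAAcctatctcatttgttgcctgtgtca
ISG15, chr1:1013359-1013424, plus strand: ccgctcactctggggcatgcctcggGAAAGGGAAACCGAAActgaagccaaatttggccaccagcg
IFIT1, chr10:89392482-89392554, plus strand: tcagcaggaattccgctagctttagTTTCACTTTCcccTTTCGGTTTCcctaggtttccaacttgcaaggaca
BST2, chr19:17405720-17405785, minus strand: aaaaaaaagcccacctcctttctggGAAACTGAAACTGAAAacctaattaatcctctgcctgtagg
OAS3, chr12:112938437-112938473, plus strand: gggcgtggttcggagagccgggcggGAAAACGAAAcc
PARP9, chr3:122564307-122564366, minus strand: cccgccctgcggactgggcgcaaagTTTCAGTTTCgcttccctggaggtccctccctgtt
PARP14, chr3:122680785-122680838, plus strand: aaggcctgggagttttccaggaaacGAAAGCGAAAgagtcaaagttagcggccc
EIF2AK2, chr2:37156977-37157011, minus strand: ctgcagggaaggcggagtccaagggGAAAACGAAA

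Of 32 members with a promoter in that table, which runs from 250 bases before to 50 after the start, 22 (68.8%) had a match on either strand. The share was 3.57% over all 35116 promoters of the same 300 bases and 4.38% over genes. Relative to the start, the first base of the match stood at −18 in IFI44, −12 in OAS3 (which has another match further upstream), −41 in PARP9, −29 in PARP14 and −6 in EIF2AK2. It stood further out in ISG15 (−113 and −107), IFIT1 (−116 and −103), IFI27 (−108 and −95) and BST2 (−130 and −124). Members with and without a match both spanned 0 in their log2 fold, which is taken throughout as CHI3L1 siRNA over control siRNA with 1 CPM added to each. Among members past the mean filter the median as deposited was −0.36 for 20 with a match and −0.08 for 10 without. Folds as deposited varied with transcript length, as described below. ISG15, IFI27, IFI6, IFITM1 and IFITM3, all of at most 1000 nt, are among those with a match. The medians are therefore not read as a difference by match, which was not tested. A match is a description of the letters in this window. The lower members RIGI and IFI35 had none, and OAS2 is not in the promoter table.

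CHI3L1, the siRNA target, stood at 140 CPM with control siRNA and 48.6 CPM with CHI3L1 siRNA, a log2 fold of −1.51, and so was lower in the library labelled for its silencing. Depth was 15837449 and 19467345 reads, and 1 read was worth 0.0632 and 0.0513 CPM. With 1 library a group there is no replicate error and no p-value, and every difference is between these libraries rather than between the treatments. Ratios carry 95% exact intervals for counting error alone, which may be too narrow because no molecular identifiers are described. The thyroid factors PAX8 and NKX2-1 and the keratins KRT8 and KRT18 were each at 24.7 CPM or more in both libraries. Of the other thyroid markers, TG was at 0.632 and 0.718 CPM and FOXE1 at 0.0633 and 0.975 CPM. Of 12 immune cell markers 4 had values, summing to 5.75 and 6.05 CPM, of which CD4 was the highest. Of 6 fibroblast and endothelial markers 5 had values, summing to 17.7 and 15.2 CPM. In RNA from a whole culture, fewer cells using a gene and less RNA per cell cannot be told apart.

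All 40 members together took 23449 reads with control siRNA (1483 CPM, 0.148% of the library) and 23410 with CHI3L1 siRNA (1201 CPM, 0.120%). IFI44, IFI27, ISG15 and IFIT1 went from a joint 432 CPM to 178 CPM, and the other 36 members from 1050 CPM to 1022 CPM. Those 4 were picked as the members past 2-fold lower, so their lower sum follows from that choice. The sum of the other 36 is a net of lower and higher members. At a fold of 1.5 on the log2 scale, 7 of 38 members (18.4%) were lower, against 13.4% of all 14815 genes tested, and 1 (2.63%) was higher, against 7.73%. At a fold of 2, 4 members (10.5%) were lower, against 4.41%, and 0 were higher, against 1.03%. The median log2 fold was −0.04 for the members and 0.01 for all genes. The members thus had a median close to that of all genes, and in both sets more genes were past the fold lower than higher. Single members ranged from −1.41 (IFI44) to 0.69 (OAS2), with 17 above and 21 below 0. By counting error alone, the interval of the ratio lay below 1 for 15 members, above 1 for 9 and held 1 for 14. Intervals without 1 were common at this depth, at 29.7% of all genes tested below and 32.0% above.

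**Figure D1:**
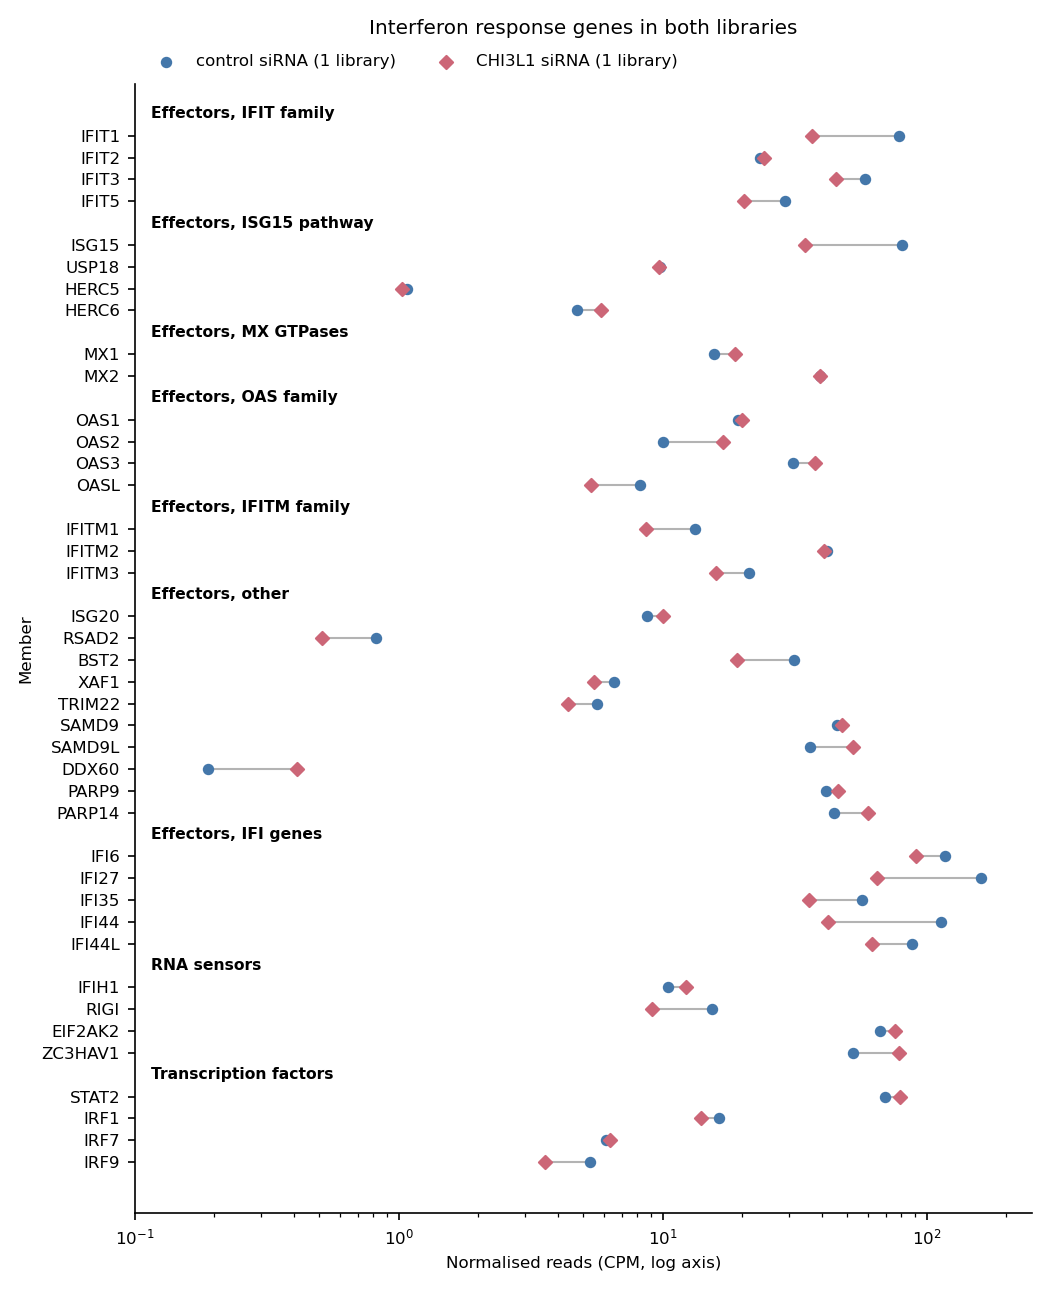
Normalised reads (CPM, log axis) of the 40 members in the control siRNA library (blue circles) and the CHI3L1 siRNA library (red diamonds), grouped by role, with 1 library per group and no error bars. IFI27, IFI44, ISG15 and IFIT1 have the wide gaps to the left, while the OAS, MX and PARP genes other than OASL lie a little higher or level with CHI3L1 siRNA (OAS3 and MX2 lie below 0 once the length and GC trend is removed).

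The sensors did not move as 1 group. RIGI, the gene of RIG-I, stood at 15.3 CPM (242 reads) with control siRNA and 9.08 CPM (177 reads) with CHI3L1 siRNA, a ratio of 0.593 (0.486 to 0.723). It was the sole sensor past 1.5-fold, with a log2 fold of −0.69, a call that was lost at a pseudocount of 10 CPM (−0.41). IFIH1, the gene of MDA5, which binds longer double-stranded RNA, stood at 10.5 and 12.2 CPM, and its interval held 1 (0.950 to 1.43). EIF2AK2 encodes PKR, a kinase that halts translation when it binds double-stranded RNA, and stood at 66.5 and 75.9 CPM, with a ratio of 1.14 (1.05 to 1.24). Reads of EIF2AK2 are uncertain, because its exons overlap GPATCH11 on the opposite strand and the strand setting is not stated. GPATCH11 had 626 and 394 reads against 1051 and 1479. ZC3HAV1 encodes the zinc finger antiviral protein, which binds CpG-rich viral RNA, and stood at 52.5 and 78.3 CPM, with a ratio of 1.49 (1.37 to 1.62). As deposited, the helicase of the list that senses short double-stranded ends was thus lower and the other sensors level or higher. Under the length and GC correction described below, RIGI stood at −0.74, ZC3HAV1 at 0.21 (from 0.57) and EIF2AK2 and IFIH1 at 0.09 each.

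The 4 transcription factors all lay within 1.5-fold. STAT2 was the most abundant of them in CPM, at 69.1 CPM with control siRNA and 79.0 CPM with CHI3L1 siRNA, a ratio of 1.14 (1.06 to 1.24). IRF9, its DNA-binding partner, stood at 5.31 CPM (84 reads) and 3.59 CPM (70 reads), a ratio of 0.676 (0.485 to 0.939). IRF7, the factor that amplifies interferon production, stood at 6.07 and 6.31 CPM, and IRF1, which drives many of the same genes, at 16.3 and 14.0 CPM, and both intervals held 1. STAT2 and IRF9 therefore lay on opposite sides of 0 as deposited, though STAT2 stood at −0.04 after the length and GC correction described below. Reads of IRF1 are uncertain by up to those of an antisense neighbour on the same exons, IRF1-AS1, which had 67 and 73 reads against 257 and 273.

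The IFI genes, small interferon-induced proteins of varied or unsettled function, held the widest differences. IFI27, a mitochondrial and nuclear membrane protein, had the highest member level with control siRNA, at 160 CPM (2530 reads), and stood at 64.9 CPM (1265 reads) with CHI3L1 siRNA, a ratio of 0.406 (0.379 to 0.434). IFI44, a cytoplasmic protein of microtubule-like aggregates, stood at 113 CPM (1792 reads) and 42.2 CPM (822 reads), a ratio of 0.372 (0.342 to 0.404) and the lowest log2 fold of the members. Its neighbour on chromosome 1, IFI44L, stood at 88.1 and 62.0 CPM, with a ratio of 0.703 (0.651 to 0.760). As deposited all 5 IFI genes were lower, though only IFI27, IFI44 and IFI35 passed 1.5-fold. IFI35 stood at 56.7 and 35.9 CPM, with a log2 fold of −0.65 that was no longer past 1.5-fold under the correction (−0.37) or at a pseudocount of 10 CPM (−0.54). IFI27 moved from −1.29 to −0.63 and IFI44 from −1.41 to −0.96 under it, and both stayed past 1.5-fold. IFI6, an inhibitor of apoptosis, stood at 117 and 90.5 CPM, with a log2 fold of −0.37 that became 0.19 under the same correction. The 5 genes were thus not all lower once that trend was removed.

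ISG15 is a ubiquitin-like protein that is conjugated to new proteins and also secreted. ISG15 stood at 80.8 CPM (1277 reads) with control siRNA and 34.6 CPM (674 reads) with CHI3L1 siRNA, a ratio of 0.428 (0.389 to 0.470). Its log2 fold of −1.20 became −0.62 under the length and GC correction described below. None of the genes that handle it passed 1.5-fold. Their corrected log2 folds were 0.01 for USP18, −0.17 for HERC5 and 0.05 for HERC6. USP18, the protease that removes ISG15 and also damps the receptor, stood at 9.74 and 9.64 CPM, with a ratio of 0.990 (0.796 to 1.23), and its reads are uncertain because a near-identical gene copy, USP41, exists. HERC5, the main ligase for ISG15, had 17 and 20 reads, and its interval ran from 0.475 to 1.94, so a difference within that range was not detectable at this depth. HERC6, its relative, had 75 and 114 reads, and its interval held 1.

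The IFIT proteins bind viral RNA by its cap or 5′ end, and the 4 genes lie side by side on chromosome 10 between 89283694 and 89421001 in GRCh38. IFIT1 stood at 78.3 CPM (1238 reads) with control siRNA and 36.8 CPM (718 reads) with CHI3L1 siRNA, a ratio of 0.470 (0.428 to 0.516). IFIT3, which stabilises IFIT1 on RNA, stood at 58.3 and 45.4 CPM, with a ratio of 0.779 (0.710 to 0.856). IFIT5 stood at 28.9 and 20.4 CPM, with a ratio of 0.705 (0.614 to 0.808). The cluster was not uniform, since IFIT1 alone passed 1.5-fold. IFIT2 stood at 23.4 and 24.1 CPM, with an interval that held 1 (0.897 to 1.18). Reads of IFIT2 are uncertain, because an exon overlaps LIPA on the opposite strand, which had 4724 reads against 370 with control siRNA, and the labels do not state whether strand was used in counting.

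The OAS enzymes make the 2′-5′ oligoadenylates that activate the ribonuclease RNase L. OAS2 was the only member at least 1.5-fold higher, at 10.1 CPM (159 reads) with control siRNA and 16.9 CPM (329 reads) with CHI3L1 siRNA, a ratio of 1.68 (1.38 to 2.04). The call of OAS2 was lost under the length and GC correction (0.48) and at a pseudocount of 10 CPM (0.42). OAS3, its neighbour on chromosome 12, stood at 31.0 and 37.6 CPM, with a ratio of 1.22 (1.08 to 1.36), with a log2 fold of 0.27 that became −0.20 under the length and GC correction. OAS1, the third gene of that cluster, had 304 and 389 reads, and its interval held 1. OASL, which lies apart on the same chromosome and has no synthetase activity, went the other way. It stood at 8.22 and 5.33 CPM, with a ratio of 0.649 (0.497 to 0.846), and its log2 fold of −0.54 was just short of 1.5-fold on the scale with 1 CPM added. The MX genes encode dynamin-like GTPases that trap viral particles. MX1 stood at 15.7 and 18.8 CPM, with a ratio of 1.20 (1.02 to 1.41), and MX2 at 39.3 CPM in both libraries.

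The IFITM proteins block viral entry at membranes, and their genes lie together on chromosome 11. IFITM1 stood at 13.2 and 8.62 CPM, with a ratio of 0.652 (0.529 to 0.803), and IFITM3 at 21.2 and 15.8 CPM, with a ratio of 0.746 (0.637 to 0.873). IFITM2 stood at 42.0 and 40.8 CPM, and its interval held 1 (0.875 to 1.08). With 1 CPM added none passed 1.5-fold, though IFITM1 (−0.56) did so at a pseudocount of 0.5 CPM, and its value under the length and GC correction was near 0. The corrected log2 folds of IFITM2 and IFITM3 were above 0, at 0.50 and 0.18. Reads of these genes are uncertain, since they are close copies of each other and annotated exons of IFITM1 and IFITM2 overlap on the same strand.

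Among the other effectors, BST2 (tetherin), which holds budding virus at the cell surface, was the sole member past 1.5-fold. It stood at 31.3 CPM (495 reads) with control siRNA and 19.1 CPM (372 reads) with CHI3L1 siRNA, a ratio of 0.610 (0.531 to 0.699). SAMD9L, a restriction factor that slows translation, stood at 36.0 and 52.3 CPM, with a ratio of 1.45 (1.31 to 1.61), while its neighbour SAMD9 stood at 45.8 and 47.8 CPM with an interval that held 1. PARP14, an ADP-ribosyltransferase, stood at 44.6 and 59.8 CPM, with a ratio of 1.34 (1.22 to 1.47). PARP9, encoded nearby, stood at 41.4 and 46.2 CPM, and an exon of it overlaps DTX3L, which had about as many reads, on the opposite strand. The call of BST2 was lost under the length and GC correction (−0.25) and at a pseudocount of 10 CPM (−0.51). PARP14 had a log2 fold of 0.41 and a corrected value of 0.06. The exonuclease ISG20 stood at 8.73 and 10.1 CPM, the apoptosis factor XAF1 at 6.51 and 5.49 CPM and the ubiquitin ligase TRIM22 at 5.63 and 4.36 CPM, and all 3 intervals held 1. RSAD2 (viperin), an enzyme that makes a chain-terminating nucleotide, had 13 and 10 reads, and the helicase DDX60 had 3 and 8, a ratio of 2.16 with an interval from 0.519 to 12.7. A difference was not detectable for either at this depth.

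**Figure D2:**
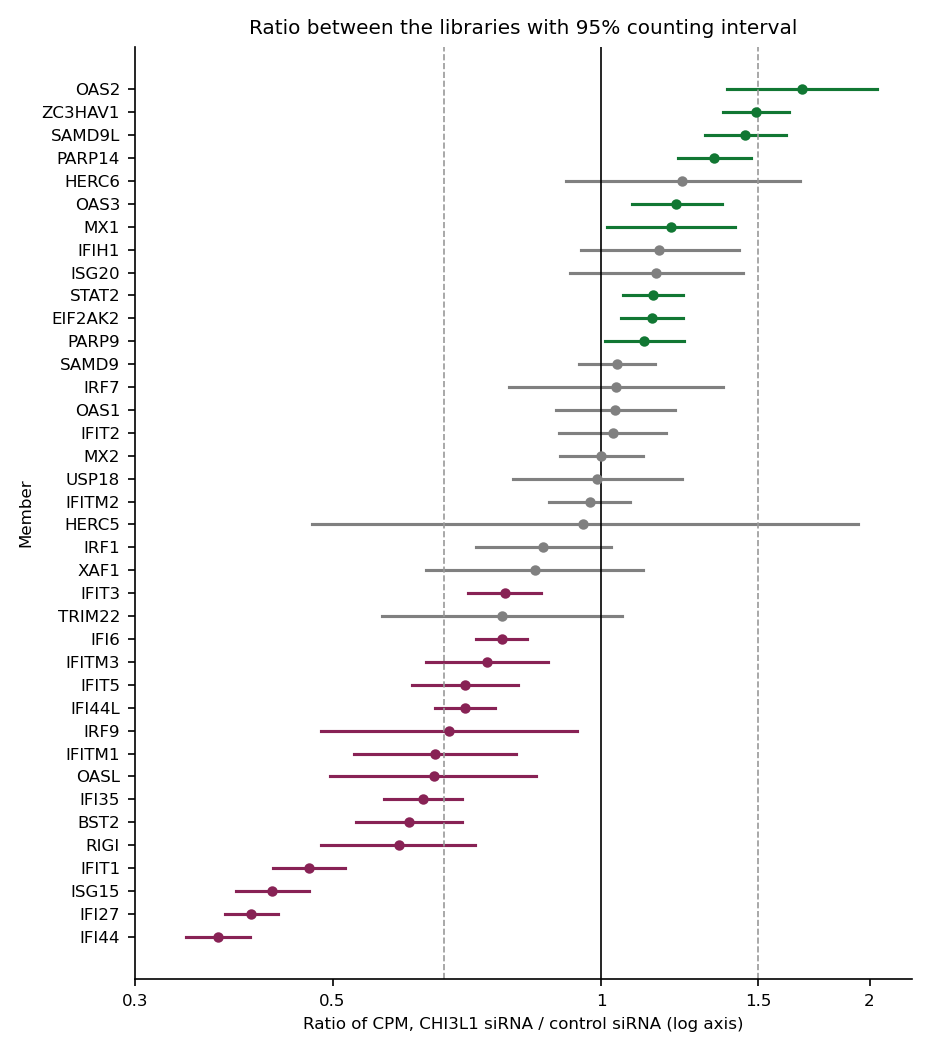
Ratio of CPM, CHI3L1 siRNA over control siRNA (log axis), for the 38 members averaging 1 CPM or more, with 95% exact counting intervals as lines and dashed lines at 1.5-fold either way. Intervals below 1 are purple (15 members), above 1 green (9) and holding 1 grey (14), and IFI44, IFI27 and ISG15 have intervals wholly below 0.5.

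Levels can be compared between members only per length, as CPM per kilobase of the annotated transcript. On that scale IFI27 led with control siRNA at 248, followed by IFI6 at 142, ISG15 at 114 and IFI44 at 67.2. With CHI3L1 siRNA, IFI6 led at 110, followed by IFI27 at 101, ISG15 at 48.6 and IFITM2 at 45.7. IFI27 and IFI6 were close there, and the order of the leading pair thus differed between the libraries. Among 12660 tested coding genes, IFI27 was at percentile 97.9 with control siRNA and 95.3 with CHI3L1 siRNA, and ISG15 at 94.9 and 89.2. The shifts in rank were wider for IFI44, from 91.4 to 78.3, and for IFIT1, from 86.0 to 72.7. At the other end HERC5 was at percentile 1.85 and 1.37. The members thus ran from the top few percent of coding genes to the bottom in both libraries.

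The lower members were mostly short transcripts. The log2 folds of coding genes as a whole varied with annotated transcript length in these libraries, with a Spearman rho of 0.46 over 12660 coding genes and 0.59 over the 38 members, given as descriptions across genes that share libraries. Of 6 members with transcripts of at most 1000 nt (ISG15, IFI27, IFI6, IFITM1, IFITM2 and IFITM3), 6 were below 0, with a median log2 fold of −0.48, against −0.62 for 599 coding genes of that length. In that range 2 of the 6 were at least 1.5-fold lower, against 52.1% of the coding genes. Between 1000 and 2000 nt, 7 members had a median of −0.65 against −0.24 for 2492 coding genes, and 4 of the 7 (IFI44, IFIT1, BST2 and IFI35) passed 1.5-fold lower, against 23.4% of the coding genes. From 2000 to 4000 nt the medians were 0.02 for 16 members and 0.03 for 4942 coding genes, and above 4000 nt 0.19 for 9 members and 0.25 for 4627. The medians of the shortest and the longest members therefore lay near those of coding genes of their length. Single members did not all do so. With the length and GC trend removed, IFI27 stood at −0.63, ISG15 at −0.62 and IFITM2 at 0.50 among the shortest. Among the longest, RIGI stood at −0.74 and SAMD9L at 0.46. RIGI, at 4353 nt, was the one member above 2000 nt past 1.5-fold lower.

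A smooth trend in transcript length, coding length and GC content was then subtracted from each log2 fold. With it, 6 of 38 members (15.8%) were at least 1.5-fold lower, against 7.31% of 12660 coding genes, and 0 were higher, against 6.09%. IFI44 stood at −0.96, IFIT1 at −0.77, IFI27 at −0.63 and ISG15 at −0.62 after it, and RIGI, little altered, at −0.74. OASL, at −0.73, joined the lower members. BST2 (−0.25) and IFI35 (−0.37) left them, and OAS2, at 0.48, was no longer past 1.5-fold. IFI44, IFIT1, IFI27, ISG15 and RIGI were thus the 5 members past 1.5-fold lower both before and after. The median of the members was −0.02, against 0.02 for coding genes.

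**Figure D3:**
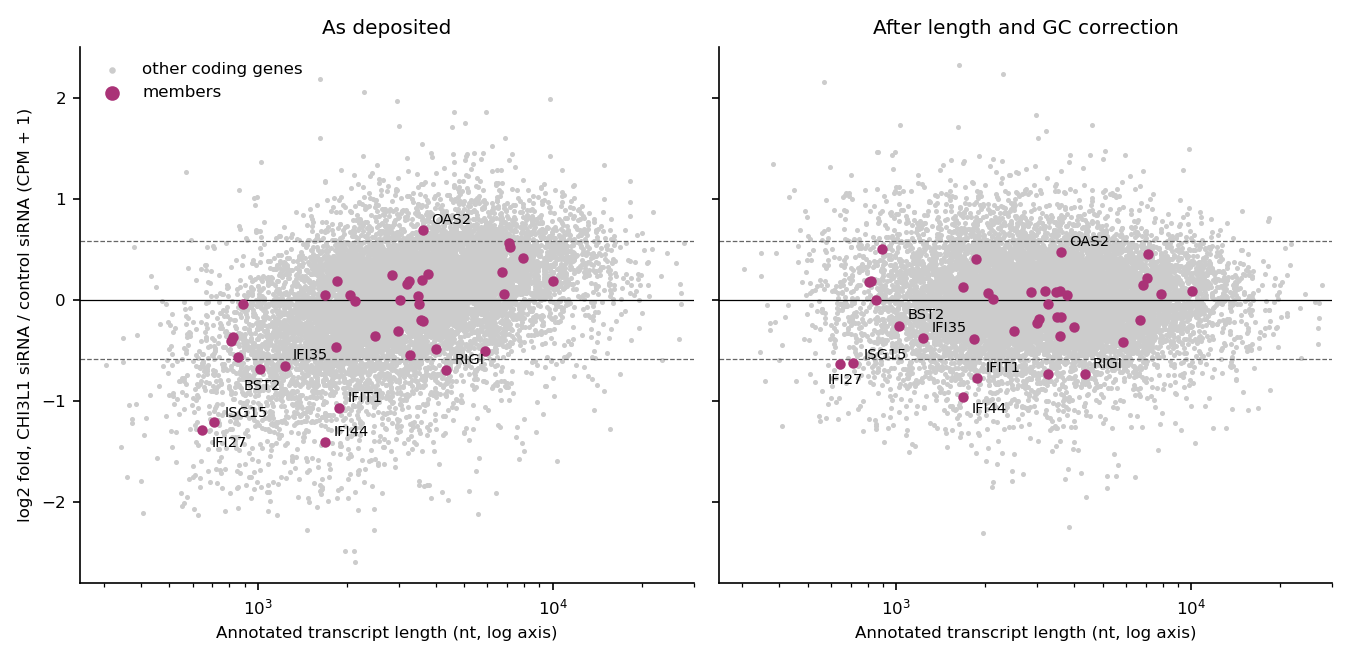
log2 fold (CPM + 1, CHI3L1 siRNA over control siRNA) against annotated transcript length (nt, log axis) for the 38 members (purple) and the other coding genes (grey), as deposited on the left and after the length and GC correction on the right, with dashed lines at 1.5-fold. The grey cloud slopes upward on the left and is level on the right, and IFI44, IFIT1, IFI27, ISG15 and RIGI are below the lower line in both.

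The rest of the pathway was read from lists apart from the members. Of 21 interferon genes, 1 had a value, IFNE, an epithelial type I interferon, with 31 reads with control siRNA and 17 with CHI3L1 siRNA, a ratio of 0.445 (0.231 to 0.829). Its log2 fold of −0.66 became 0.21 under the length and GC correction. The other 20, IFNB1 and the IFNA genes among them, were not analysed here, and every gene of the table had at least 6 reads in 1 of the libraries. Of 14 tested receptor and JAK-STAT genes, 2 were at least 1.5-fold higher (14.3%, against 7.73% of all genes) and 0 lower (against 13.4%), with a median log2 fold of 0.11. After the length and GC correction 0 were past 1.5-fold, and the higher pair, PIAS1 and STAT3, had values of 0.41 and 0.23. PIAS1, an inhibitor of STAT signalling, stood at 20.4 and 31.9 CPM, and STAT3 at 137 and 209 CPM. The receptor chain IFNAR1 stood at 54.4 and 70.0 CPM, with a ratio of 1.29 with an interval from 1.18 to 1.40, and its partner IFNAR2 at 1.64 CPM (26 reads) and 2.82 CPM (55 reads). The kinase JAK1 stood at 178 and 251 CPM, with a ratio of 1.41 (1.35 to 1.48), and TYK2 stood at 98.3 and 103 CPM. These receptor and kinase genes were therefore present in both libraries, and none of the 4 was lower with CHI3L1 siRNA as deposited. The corrected log2 fold was −0.24 for TYK2 (0.07 as deposited) and 0.15 for IFNAR1 (0.36 as deposited). It was 0.42 for IFNAR2 (0.53 as deposited) and 0.17 for JAK1 (0.50 as deposited).

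Of 20 tested genes of RNA and DNA sensing, 2 were at least 1.5-fold higher and 2 lower (10% each, against 7.73% and 13.4% of all genes), with a median log2 fold of 0.21. With the length and GC trend removed, 1 was higher (IFI16) and 1 lower (TBK1), and the median was −0.02. TBK1, the kinase that joins the sensors to IRF3, stood at 94.7 CPM (1497 reads) with control siRNA and 42.2 CPM (823 reads) with CHI3L1 siRNA, a ratio of 0.446 (0.409 to 0.486). Its log2 fold was −1.15, and it remained past 1.5-fold lower under the length and GC correction. TARBP2, which passes small RNAs to Argonaute and inhibits PKR, stood at 23.2 and 15.1 CPM, and its corrected value of −0.49 was not past 1.5-fold. The adaptor of TLR3, TICAM1, stood at 14.0 and 22.8 CPM, with a corrected value of 0.55, also not past it. IFI16, a sensor of DNA, stood at 78.3 and 124 CPM. IRF3, the target of TBK1, stood at 62.1 and 51.0 CPM, with a ratio of 0.822 (0.752 to 0.899). RIGI and TBK1 were both past 1.5-fold lower, before and after the correction. MAVS, which passes the signal of RIG-I towards TBK1, had a log2 fold of 0.54 and a corrected value of 0.04, and was chosen after its values were seen.

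A further list of 35 interferon-stimulated genes, none of them a member, had a median log2 fold of 0.05. Of these, 4 were at least 1.5-fold higher (11.4%) and 3 lower (8.57%), against 7.73% and 13.4% of all genes. RTP4, a chaperone of receptors, had 109 reads with control siRNA and 39 with CHI3L1 siRNA, a ratio of 0.290 (0.196 to 0.422), and PNPT1, a mitochondrial ribonuclease, at 48.0 and 28.5 CPM. The guanylate-binding GTPase GBP2 stood at 22.3 and 39.1 CPM, and the apolipoprotein APOL1 had 29 and 78 reads. Interferon-stimulated genes outside the members thus included 1 log2 fold near that of IFI44, RTP4 at −1.40, as well as higher ones. The next lowest was PNPT1 at −0.73. After the length and GC correction 4 were higher (11.4%) and 3 lower (8.57%), against 6.09% and 7.31% of coding genes, with a median of 0.11. Whether the lists differ was not tested.

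**Figure D4:**
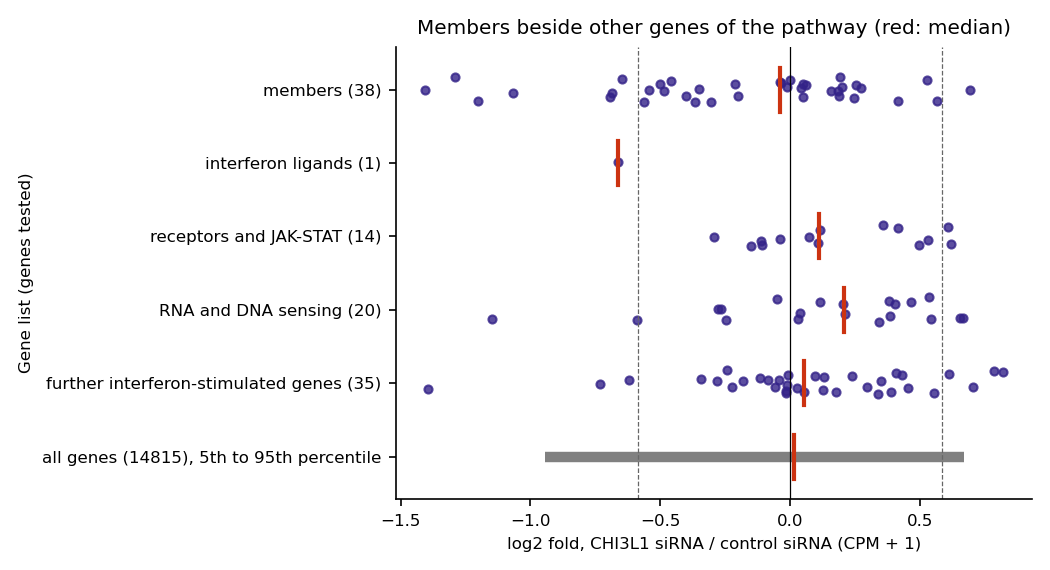
log2 fold (CPM + 1, CHI3L1 siRNA over control siRNA) of each tested gene (points) in the members and in 4 other lists of the pathway, with the median in red, the 5th to 95th percentile of all 14815 genes as a grey bar (−0.94 to 0.67) and dashed lines at 1.5-fold. The members are centred near 0 with 4 genes below −1, and the median of each other list but the ligands, which hold 1 gene, lies above 0 as deposited (the sensing list is at −0.02 after the length and GC correction).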

How the data were processed

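RNA from both transfections was made into libraries with an Illumina TruSeq kit, per the labels' protocols. The submitters' processing notes name Trimmomatic, HISAT2, featureCounts and GRCh38, with no versions. The authors deposited normalised read counts in CPM. In the values, dividing each CPM by a step fixed per library and taking off 0.001 left whole reads (100% within 0.01 read), which gave the depths. A bound of 3 reads was set for the level of an unseen gene, worth 0.190 CPM with control siRNA and 0.154 CPM with CHI3L1 siRNA. It is not a floor of the values, and lower values occur. The sources used here do not give the annotation release, normalisation tool, low-count filter or strand setting.

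Symbols were found for 17229 identifiers. Coordinates and 1 principal transcript per coding gene came from GENCODE release 29 (GRCh38), and promoters from RefSeq. Folds add 1 CPM, the filter is a mean of 1 CPM, and intervals are Clopper-Pearson at 95%. No count model was run. The correction subtracts a spline with 5 degrees of freedom for each of transcript length, coding length and GC content, fitted with statsmodels 0.14.6 to 12539 coding genes outside the lists, and explained 36.0% of the variance of their folds. Steps were tested on simulated data. The members and lists were chosen with earlier results of these data known, and the correction follows one already applied to them. Named genes are every member, CHI3L1, the core signalling genes IFNAR1, IFNAR2, JAK1, TYK2 and IRF3 (1 further gene is not reported here), and up to 4 genes with the largest absolute log2 fold in each other list. Other genes named (markers and overlapping genes) came from fixed marker lists or from the annotation, and IFNB1 was chosen after the values were seen. Alternatives tried were other pseudocounts, mean filters, scalings and folds, the correction, and counts requiring an interval without 1.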

Additional observations from a re-analysis of the deposited data

How the results depend on the processing

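No paired analysis was possible because each group has 1 library, and no library could be left out. None of the alternatives turned the direction of a member past 1.5-fold. The 7 lower members became 4 at a pseudocount of 10 CPM and 4 at a fold of 2 (IFI44, IFI27, ISG15 and IFIT1 in both), and the 1 higher member, OAS2, became 0 at that pseudocount, at a fold of 2 and after the length and GC correction. At a pseudocount of 0.5 CPM there were 8 lower members, and after centring on genes that averaged 50 CPM or more, 10. CHI3L1 had a log2 fold of −1.36 at a pseudocount of 10 CPM. The median of the members ran from −0.14 after centring to −0.02 at a pseudocount of 10 CPM. Members within 1.5-fold changed sign in 7 cases under the length and GC correction (IFI6, IFITM2, IFITM3, STAT2, OAS3, USP18 and MX2), in 5 under centring (SAMD9, IRF7, IFIT2, OAS1 and MX2) and in 1 under a trimmed mean of log ratios (MX2). Depth limits RSAD2, DDX60 and HERC5, with at most 20 reads each per library.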

Other observations

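Members that lie next to each other on a chromosome, within 200 kb, did not always share a level of change between the libraries. This reading was chosen after the values were seen. IFI44L and IFI44 on chromosome 1 had log2 folds of −0.50 and −1.41, and of −0.42 and −0.96 after the length and GC correction. The IFIT cluster on chromosome 10 spanned 1.11 as deposited between IFIT2 and IFIT1, which stood at 0.08 and −0.77 after the correction. OAS1, OAS3 and OAS2, in that order along chromosome 12, had log2 folds of 0.05, 0.27 and 0.69, and of 0.13, −0.20 and 0.48 after the length and GC correction, so the order as deposited did not hold under it. As deposited, the pairs MX2 and MX1, PARP9 and PARP14, and HERC6 and HERC5 each differed by less than 0.29 between neighbours, and SAMD9 and SAMD9L by 0.47.

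EIF2AK2, the gene of PKR, overlaps GPATCH11 on the opposite strand, and GPATCH11 stood at 39.6 CPM with control siRNA and 20.2 CPM with CHI3L1 siRNA, a log2 fold of −0.94, while EIF2AK2 had 0.19. The strand setting is not stated, so the reads of both genes are uncertain.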
